A study of Mus musculus with 53 samples.

Results

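The genes that load and present peptides on major histocompatibility complex (MHC) molecules were followed across a microarray series on mouse synovial sarcoma driven by the *SS18-SSX1* fusion. The 10 genes were *H2-K1*, *B2m*, *Tap1*, *Tap2*, *Tapbp* and *Nlrc5* for class I and *H2-Aa*, *H2-Ab1*, *H2-Eb1* and *Cd74* for class II. Every probe set whose platform annotation carried 1 of these symbols and no other was taken, which gave 15 of the 45037 probe sets used and 7 of the 10 genes. Class I was read by 7 probe sets of 3 genes, *H2-K1* (4 probe sets), *Tapbp* (2) and *Nlrc5* (1). Class II was read by 8 probe sets of 4 genes, *H2-Aa* (3), *H2-Ab1* (3), *H2-Eb1* (1) and *Cd74* (1). *B2m*, *Tap1* and *Tap2* had no probe set with a single symbol and were not analysed here, and 5 further probe sets that carried *H2-K1* together with *H2-D1* were not used. The probe sets of 1 gene are numbered by brightness, *H2-K1* (1) being the brightest of its gene. All 4 *H2-K1* probe sets, *H2-Aa* (1) and (3) and *H2-Ab1* (3) are of a type that may also bind transcripts of closely related genes. This limit holds in every comparison.

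MHC class I molecules sit on most nucleated cells and show cytosolic peptides to CD8 T cells. Their heavy chain, *H2-K1* in the mouse, is loaded with peptide next to the TAP transporter with the help of tapasin, the product of *Tapbp*, and its transcription is driven by NLRC5 and by interferon-responsive factors. MHC class II molecules are carried mainly by dendritic cells, macrophages and B cells and show endocytosed peptides to CD4 T cells. *H2-Aa* and *H2-Ab1* encode the alpha and beta chains of I-A, *H2-Eb1* encodes the beta chain of I-E, *Cd74* encodes the invariant chain that fills the groove until peptide is loaded, and CIITA is their shared transactivator.

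The study asked which genes changed when *SS18-SSX1* entered embryonic mesenchymal cells (eMCs), when tumors formed from them, and when the microRNA *miR-214* was added. The 53 arrays fell into 9 groups. SS214 tumor (13 arrays) and SS tumor (12 arrays) were subcutaneous tumors grown in Balb/c nude mice from eMCs that carried a retrovirus with FLAG-tagged human *SS18-SSX1*, together with *miR-214* for SS214 tumor and with GFP for SS tumor. The normal tissue mix (4 arrays) pooled RNA of 10 tissues, and its strain was not given. The cell lines SS40 and SS64 were derived from mouse synovial sarcomas and were transfected with *miR-214* (SS40 miR-214 and SS64 miR-214) or with a negative control (SS40 NC and SS64 NC), with 4 arrays in each of these 4 groups. The eMCs came from the limb soft tissue of BALB/c embryos and were read 48 h after transduction with *SS18-SSX1* (eMC SS18-SSX1, 4 arrays) or with the empty GFP vector (eMC empty vector, 4 arrays). Nude mice lack a thymus and most T cells but keep macrophages, dendritic cells and B cells, so that tumor RNA holds host cells beside tumor cells, while each line stands for 1 tumor.

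Values are log2 of the deposited intensity, with intensities under 11.7 raised to that floor, which is 3.55 on the log2 scale. In 5 pairs of arrays no probe set of mean log2 above 6 differed by over 2-fold, while the most different pair of the same group differed at 112 or more probe sets, and each of these pairs was counted as 1 sample, leaving 11 SS tumors and 3 samples in each line group. The eMC and normal tissue mix groups also held pairs with no such probe set, and there no pair differed at more than 5. The 4 arrays of each of these groups may therefore be repeats of 1 sample. All of them were kept, and p-values that use them measure the spread between arrays. The pairs counted as 1 sample were SS tumors 24 and 29, replicates 3 and 4 of SS40 NC, and replicates 1 and 2 of SS40 miR-214, SS64 miR-214 and SS64 NC. The values of all 4 arrays are printed for each line group. Each array's median intensity was 22.57 to 26.9. On the log2 scale, the 3′ control probe set of *Gapdh* stood over the 5′ one by 0.85 ± 0.37 (SD) over the SS tumor arrays and between -0.175 and 0.06 on average in the other groups. *Col1a1*, a mesenchymal collagen, had log2 means of 9.13 in eMC SS18-SSX1 and 9.46 in eMC empty vector, whereas the *Col1a2* probe set averaged 3.63 and 3.76 in the same order of groups, near the floor. Neither human *SS18-SSX1* nor mature *miR-214* was analysed here, so the labels were not checked against them.

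The genes lay on chromosome 17 (GRCm38.p6) except *Nlrc5*, at chr8:94434335-94527272, and *Cd74*, of the 7 measured. *H2-K1* spans chr17:33996012-34000619, *Tapbp* chr17:33919478-33929290, *H2-Ab1* chr17:34263227-34269418, *H2-Aa* chr17:34282744-34287823 and *H2-Eb1* chr17:34305867-34316674. To show the motifs known from promoters of both classes, the 150 bases upstream of the RefSeq transcript start are printed for the 4 measured genes with a window used here, 5′ to 3′ on the gene's own strand. Capitals mark 2 motifs searched on both strands, the interferon-stimulated response element core AANNGAAA and the inverted CCAAT box CTGATTGG of class II promoters. The windows are chr17:34000348-34000497 on the minus strand for *H2-K1*, chr17:33919328-33919477 on the plus strand for *Tapbp*, chr17:34287824-34287973 on the minus strand for *H2-Aa* and chr17:34305717-34305866 on the plus strand for *H2-Eb1*.
H2-K1: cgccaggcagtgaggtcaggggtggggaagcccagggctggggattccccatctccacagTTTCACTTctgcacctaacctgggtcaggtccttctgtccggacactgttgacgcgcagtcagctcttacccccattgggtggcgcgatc
Tapbp: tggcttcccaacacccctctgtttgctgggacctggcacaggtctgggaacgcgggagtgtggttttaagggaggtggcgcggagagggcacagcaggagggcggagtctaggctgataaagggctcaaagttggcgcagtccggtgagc
H2-Aa: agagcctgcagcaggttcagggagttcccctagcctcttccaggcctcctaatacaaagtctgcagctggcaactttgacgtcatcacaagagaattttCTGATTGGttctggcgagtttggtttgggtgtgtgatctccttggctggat
H2-Eb1: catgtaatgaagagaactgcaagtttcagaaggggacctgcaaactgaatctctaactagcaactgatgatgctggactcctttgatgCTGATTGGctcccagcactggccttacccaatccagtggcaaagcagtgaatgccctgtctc

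The *H2-K1* window held AANNGAAA on the opposite strand from -90 to -83, counted from the transcript start. The *H2-Aa* and *H2-Eb1* windows held CTGATTGG, from -51 to -44 for *H2-Aa* and from -62 to -55 for *H2-Eb1*. In *H2-K1*, CTGATTGG was not in the printed window but lay on the opposite strand from 8 to 15 past this start, which is -6 to 1 of a second RefSeq start at position 34000333. Neither motif was in the *Tapbp* window. Of 32851 RefSeq promoters, 12.4% held AANNGAAA and 3.16% held CTGATTGG in the same 150 bases, so that a match describes these letters and not a site in use. No window was used here for *Nlrc5*, *H2-Ab1* or *Cd74*.

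Class I levels were highest in the tumors, and those of *H2-K1* (1) were lowest in the cell lines. *H2-K1* (1) averaged 11.90 ± 0.46 in SS214 tumor (SD, n = 13), 12.11 ± 0.45 in SS tumor (n = 11) and 11.17 ± 0.04 in the normal tissue mix (n = 4). It averaged 9.94 ± 0.28 in SS40 miR-214, 9.25 ± 0.03 in SS40 NC, 9.80 ± 0.05 in SS64 miR-214 and 8.85 ± 0.05 in SS64 NC (n = 3 each), with 10.88 ± 0.02 in eMC SS18-SSX1 and 10.52 ± 0.04 in eMC empty vector (n = 4 each). In the order of these 9 means only 2 neighbouring pairs overlapped, SS tumor with SS214 tumor and SS40 miR-214 with SS64 miR-214. *Tapbp* (1) followed another order below the tumors. It averaged 11.30 ± 0.32 in SS214 tumor and 11.76 ± 0.24 in SS tumor, 10.02 ± 0.06 in SS40 NC, and 9.61 to 9.85 in SS40 miR-214, both eMC groups and the normal tissue mix, whose neighbours in the order overlapped. It was lowest in SS64 miR-214 (6.90 ± 0.16) and SS64 NC (7.79 ± 0.11). *Nlrc5*, the class I transactivator, averaged 6.34 ± 1.25 in SS214 tumor and 7.10 ± 1.16 in SS tumor, against 4.24 ± 0.07 in the normal tissue mix. Its 6 cell line and eMC groups averaged 3.55 to 3.85, within 0.31 of the floor, and each overlapped its neighbour in that order.

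**Figure D1:**
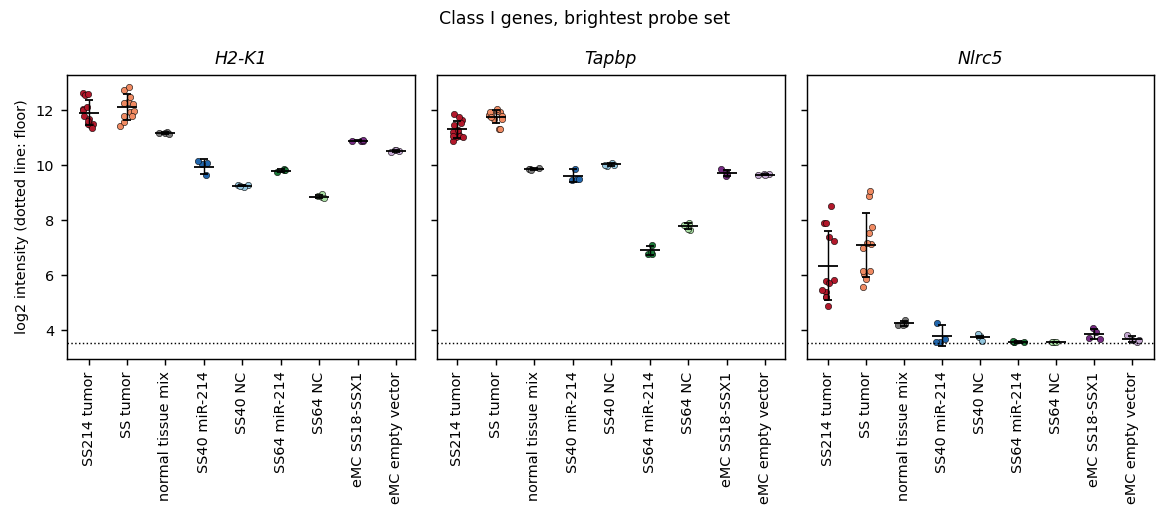
log2 intensity of the brightest probe set of *H2-K1*, *Tapbp* and *Nlrc5* on every array of the 9 groups, with group means and SD as bars and the floor as a dotted line. The tumors stand highest for all 3 genes, and *Nlrc5* lies near the floor in the lines and eMCs.

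Class II levels split the groups into those with tissue and those grown in culture. *Cd74* averaged 8.84 ± 0.99 in SS214 tumor, 8.79 ± 1.19 in SS tumor and 7.95 ± 0.05 in the normal tissue mix, whereas the 6 groups of cultured cells averaged 5.24 to 5.91 and each overlapped the next in order. *H2-Aa* (1) averaged 10.69 ± 0.79 in SS214 tumor, 10.81 ± 0.90 in SS tumor and 9.94 ± 0.06 in the normal tissue mix, against 5.29 to 5.80 in the cultured groups. *H2-Eb1* averaged 10.43 ± 0.87, 10.11 ± 1.29 and 8.99 ± 0.06 in those 3 groups, against 4.82 to 5.70 in culture. The 2 tumor groups overlapped each other for each of these genes, as did SS tumor and the normal tissue mix. SS214 tumor overlapped the normal tissue mix for *Cd74* and *H2-Aa* (1) but not for *H2-Eb1*. *H2-Aa* (3) was at the floor on every array outside the tumors.

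**Figure D2:**
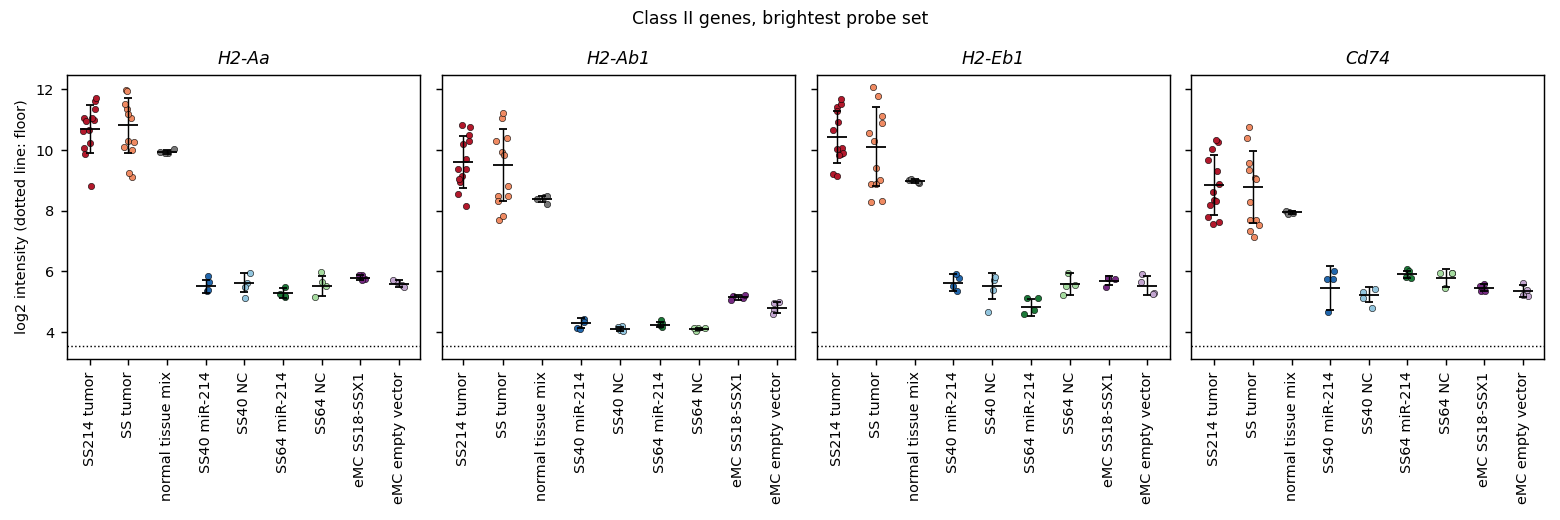
log2 intensity of the brightest probe set of *H2-Aa*, *H2-Ab1*, *H2-Eb1* and *Cd74* on every array of the 9 groups, with group means and SD as bars and the floor as a dotted line. Both tumor groups and the normal tissue mix lie above every cultured group, without overlap.

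SS tumors were set against normal tissue, the eMCs they came from and the lines, in comparisons that share the 11 SS tumors. Against the normal tissue mix, the class I genes rose and the class II genes did not pass the test. *Tapbp* (1), the peptide-loading tapasin, was 11.31, 11.80 and 12.05 in SS tumor (lowest, median and highest), against 9.86, 9.89, 9.85 and 9.82 in the normal tissue mix. Every tumor stood above every mix array, and the log2 fold change was 1.90 ± 0.12 (SE, adjusted p = 3.8e-10, limma with Benjamini-Hochberg adjustment). *Nlrc5* was 5.58, 7.12 and 9.07 in SS tumor, against 4.35, 4.22, 4.20 and 4.20 in the normal tissue mix, again without overlap (2.86 ± 0.54, adjusted p = 0.00023, limma). In bulk samples, fewer cells of a type and less RNA per cell cannot be told apart. The 3′ to 5′ *Gapdh* ratio averaged 0.85 over the SS tumor arrays, against 0.06 in the normal tissue mix and 0.01 in eMC empty vector. In SS40 NC it was -0.05 and in SS64 NC -0.175. The ratio thus differed along with the group in each of these comparisons and cannot be told apart from it. The labels do not say whether samples of a group came from separate animals or cultures, so p-values measure the spread between these samples, which may be technical.

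In all, 5 of the 7 class I probe sets were called higher in SS tumor than in the normal tissue mix, a call meaning an adjusted p under 0.05 and over 2-fold, where 8.97% of all 38130 probe sets tested were called higher and 9.45% lower. These were *H2-K1* (2) and (3), with log2 fold changes of 1.12 and 1.14, both *Tapbp* probe sets and *Nlrc5*. *H2-K1* (1), the class I heavy chain, was 11.42, 12.21 and 12.82 in SS tumor, against 11.21, 11.16, 11.12 and 11.17 in the normal tissue mix. The groups did not overlap, and its log2 fold change of 0.94 (95% CI 0.50 to 1.39, adjusted p = 0.0011, limma) was under 2-fold. None of the 8 class II probe sets was called, and none had an unadjusted p under 0.05 with limma, as 59.0% of all probe sets had. All 8 overlapped between the groups, which was not counted over all probe sets. The largest class II difference was that of *H2-Eb1*, 1.12 (95% CI -0.13 to 2.38, adjusted p = 0.12, limma). A fit of all 53 arrays together called 2 of the 8, *H2-Ab1* (1) (adjusted p = 0.027) and *H2-Eb1* (adjusted p = 0.041).

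The wider pathway was described by lists of genes read at their brightest probe set, where 11.1% of all genes tested rose and 13.6% fell. Of 11 other class I heavy chain genes tested, 3 rose and 2 fell in SS tumor against the normal tissue mix, led by *H2-Q10*, a liver-secreted heavy chain (-4.44), and by *H2-M3* (2.70) and *H2-Q4* (2.47). Of 10 peptide-processing genes 3 rose and none fell, namely *Psmb9* (1.82) and *Psmb8* (1.18), catalytic subunits of the immunoproteasome, and *Erap1* (1.21), which trims peptides, and the list's median of 0.53 stood beside 0.06 over all genes. Of 13 other class II pathway genes only *Cd83* passed (2.09), and *Ciita* differed by 0.66 (adjusted p = 0.027), under 2-fold. Class II promoter factors rose in 1 of 7 cases and fell in 0. *Rfx5* averaged 8.65 ± 0.26 in SS tumor and 6.91 ± 0.17 in the normal tissue mix. Interferon-stimulated genes went both ways, 3 of 15 higher and 3 lower. Of 14 macrophage markers none rose and 3 fell, including *Lyz2* (-2.37), and their summed intensity was 1015 to 10251 in SS tumor, against 7943 to 8414 in the normal tissue mix, with no marker at the floor on every array of either group. All 6 endothelial markers fell, and none of the 6 dendritic cell and 6 B cell markers tested was called. The part of these markers in the class I and class II values was not tested.

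Against eMC empty vector, both classes rose in SS tumor. *H2-Aa* (1) was 9.17, 11.07 and 11.99 in SS tumor, against 5.65, 5.55, 5.72 and 5.48 in eMC empty vector, which is 37.0-fold (log2 5.21 ± 0.41, adjusted p = 1.2e-08, limma). *Cd74* was 7.24, 9.06 and 10.75 in SS tumor, against 5.62, 5.18, 5.22 and 5.38 in eMC empty vector (10.9-fold, adjusted p = 4.0e-05, limma). The lowest tumor stood well above every eMC array for both genes. Of the 8 class II probe sets 7 were called higher, with log2 fold changes of 3.41 to 5.66, and of the 7 class I probe sets 5 were called higher, where 11.6% of all probe sets tested were and 7.63% were lower. *Nlrc5* was 3.55, 3.63, 3.81 and 3.64 in eMC empty vector, and SS tumor exceeded it by 3.45 ± 0.53 (10.9-fold, adjusted p = 3.0e-05, limma). *H2-K1* (1) exceeded its eMC empty vector values of 10.56, 10.54, 10.47 and 10.50 by 1.60 (95% CI 1.15 to 2.04).

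The immunoproteasome genes moved in the same direction, *Psmb9* by 3.86 and *Psmb8* by 2.45, among 4 of 10 peptide-processing genes that rose and none that fell, where 14.5% of all genes rose and 8.70% fell. *H2-D1*, a classical heavy chain, rose by 3.91, among 5 of 11 other class I heavy chain genes. *Irf1*, an interferon-induced factor, rose by 1.49, whereas *Ciita* differed by 0.46 (adjusted p = 0.097) and *Ifng* by 0.05 (adjusted p = 0.64). Other class II pathway genes were higher in 3 of 13 cases and lower in 1, and class II promoter factors were higher in 1 of 7 and lower in 0. *Rfx5* averaged 8.65 in SS tumor and 7.20 in eMC empty vector. Interferon-stimulated genes went both ways, 2 of 15 higher and 5 lower, among them *Gbp2* (2.25) and *Ifit3* (-2.70). Of 13 macrophage markers 4 rose and 3 fell, led by *C1qa* (2.77) and *C1qb* (2.34) upward and *Cd68* (-3.16) and *Cd14* (-2.59) downward. The summed macrophage markers were 1015 to 10251 in SS tumor and 2901 to 2979 in eMC empty vector. Of 6 endothelial markers, 5 were called higher, and none of the 6 dendritic cell and 6 B cell markers tested was called. The part of these markers in the class II values was not tested.

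Against the lines, 6 of 7 class I and 7 of 8 class II probe sets were called higher in SS tumor than in SS40 NC, where 12.8% of all probe sets tested were and 10.0% were lower. Against SS64 NC, 7 of 7 and 7 of 8 were called higher, where 4628 of all 38557 probe sets tested were called higher and 3728 (9.67%) lower. *Cd74* exceeded SS40 NC by 3.56 and SS64 NC by 3.01, and *H2-Aa* (1) by 5.18 and 5.29. *Nlrc5* was at the floor on all 4 SS64 NC arrays, so that SS tumor was at least 11.8-fold higher (adjusted p = 0.00014, limma). Among 13 other class II pathway genes, 5 were higher and 0 lower against SS40 NC, and 6 higher and 1 lower against SS64 NC. Among 15 interferon-stimulated genes, 6 were higher and 1 lower against SS40 NC, and 7 higher and 1 lower against SS64 NC. Macrophage markers moved alongside, 8 of 13 higher and 1 lower against SS40 NC (16.1% of all genes were higher and 11.3% lower), and 8 of 13 higher against SS64 NC (15.4% higher and 10.6% lower). Their summed intensity was 1015 to 10251 in SS tumor, against 409.9 to 465.4 in SS40 NC and 262.9 to 289 in SS64 NC, where *Cd163* was at the floor in both lines and *Itgam* in SS64 NC. Of 6 endothelial markers, 5 were called higher against SS40 NC and 6 against SS64 NC. None of the 6 dendritic cell and 6 B cell markers tested was called in either comparison. The part of these markers in these differences was not tested.

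**Figure D3:**
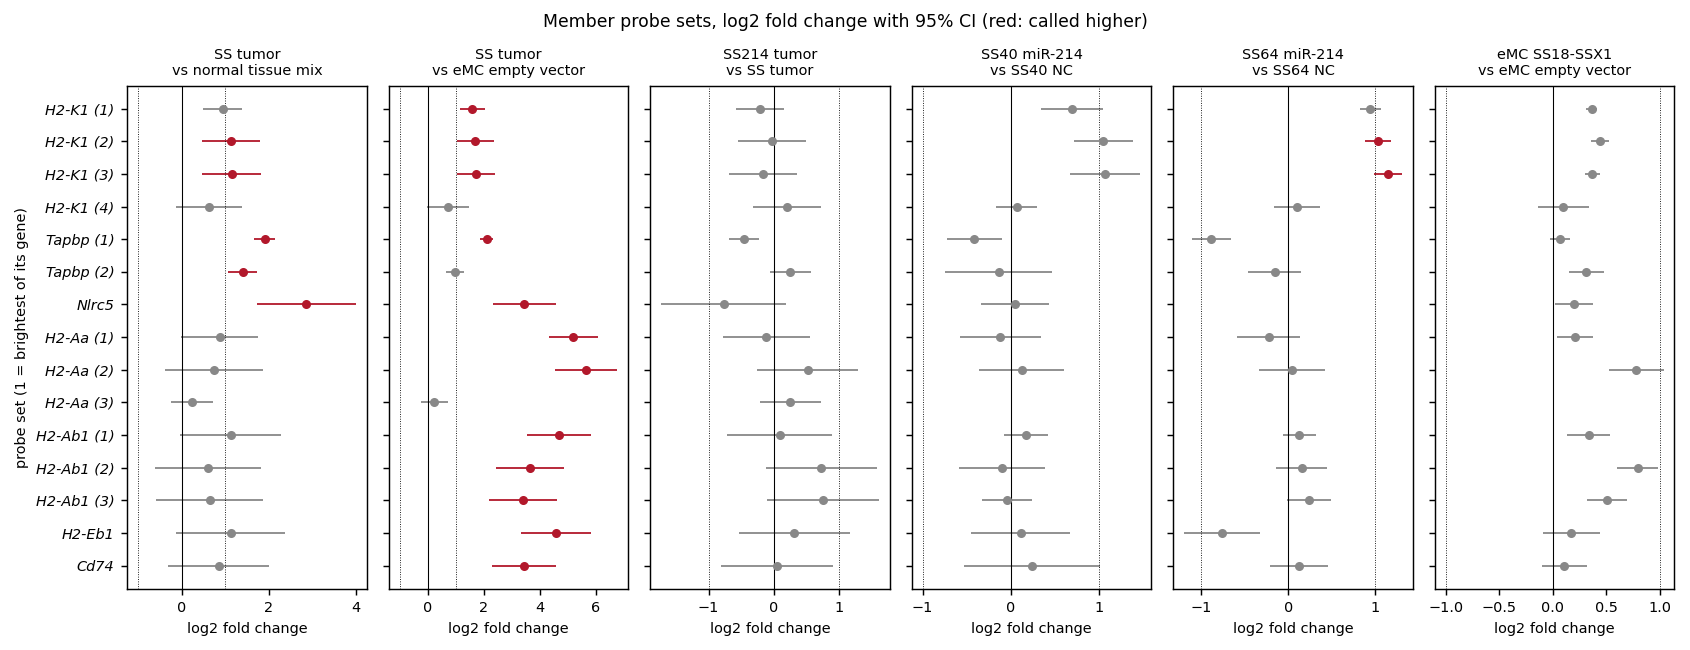
log2 fold change with 95% CI of each member probe set in 6 comparisons, the first-named group over the second. Red points were called higher, dotted lines mark 2-fold, and the x axes differ between panels.

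The members also varied widely among tumors of 1 group. In SS tumor the SD of *Nlrc5* was 1.16, above that of 98.9% of 15146 genes, and those of *H2-Eb1* and *Cd74* were above 99.3% and 99% of genes, while *Tapbp* (0.24) was above 59%. In SS214 tumor *Nlrc5* (1.25) stood above 98.8% and *Cd74* (0.99) above 97.3% of 15441 genes, and *Tapbp* (0.32) above 63.4%. SS tumors 22 and 23 were the 2 highest for 7 of 7 class I and 8 of 8 class II probe sets. SS214 tumor 13 was among the 2 highest for 5 class I and 7 class II probe sets, SS214 tumor 2 for 3 and 7 and SS214 tumor 1 for 6 and 1. SS214 tumor 5 was among the 3 lowest for 6 of 7 class I and 8 of 8 class II probe sets, and SS214 tumor 14 for 3 of 7 and 8 of 8. For *H2-Aa* (3) this counts all 5 SS214 tumors tied at the floor.

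**Figure D4:**
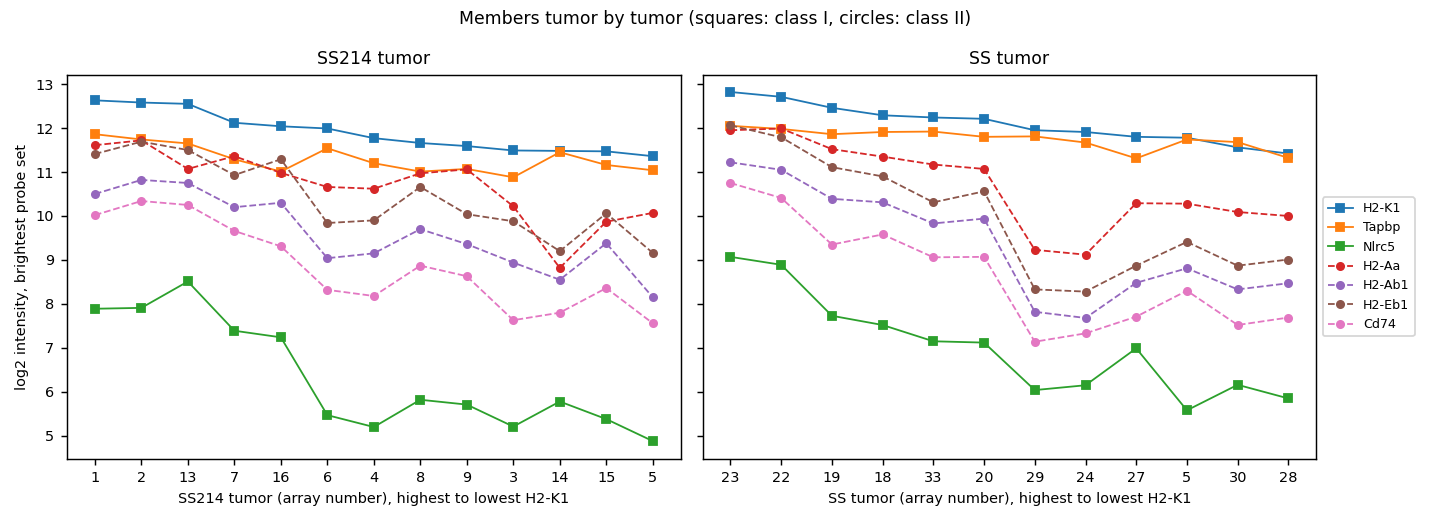
log2 intensity of the brightest probe set of each member in the SS214 tumor (left) and SS tumor (right) arrays, ordered from the highest to the lowest *H2-K1*, with the labels' array numbers on the x axis. Class I genes are squares and class II genes circles, and SS tumor arrays 24 and 29 are the pair counted as 1 sample.

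Within each tumor group, *H2-K1* ran with *Nlrc5*. Pearson's r was 0.91 (Spearman's rho 0.81, n = 13) in SS214 tumor and 0.92 (rho 0.94, n = 11) in SS tumor, each with an adjusted permutation p of 0.00024 over 8 relations. *Cd74* ran with *Ciita* (r = 0.85, rho = 0.70 in SS214 tumor, and r = 0.91, rho = 0.92 in SS tumor) and with *Csf1r*, a macrophage receptor (r = 0.87, rho = 0.83 in SS214 tumor, and r = 0.85, rho = 0.92 in SS tumor), with adjusted permutation p-values of 0.00024 to 0.00073 for r. *Cd74* also ran with *Cd79b*, a B cell receptor chain (r = 0.67, rho = 0.68 in SS214 tumor with an adjusted permutation p of 0.013, and r = 0.89, rho = 0.79 in SS tumor with 0.00051). Without the 2 tumors farthest from the median, r was between 0.73 and 0.86 in 7 of the 8 relations, and the relation of *Cd74* with *Cd79b* in SS214 tumor no longer passed without SS214 tumors 2 and 7 (r = 0.56, n = 11, adjusted permutation p = 0.071). *Ciita* itself reached only 3.59 to 4.88 in SS214 tumor and 3.85 to 5.50 in SS tumor, close to the floor. *Csf1r* also had a narrow range, 5.36 to 6.50 in SS214 tumor and 5.09 to 6.72 in SS tumor, beside line means of 5.18 to 5.27. No other macrophage gene was set against *Cd74* within the tumor groups. The summed B cell markers (6 genes) were 91.11 to 1151 in SS214 tumor and 80.47 to 1144 in SS tumor, with no marker at the floor on every array. The labels name no batch, so these relations could not be repeated within one.

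Over all 53 arrays, the pattern most like that of *H2-K1* (1) was that of *H2-Q4* (r = 0.949), followed by *H2-D1* (0.946), *Psmb9* (0.946), *Tmem30b* (0.939) and *Meg3* (0.938). For *Cd74* it was *H2-Ea*, the I-E alpha chain (r = 0.958), followed by *Aif1* (0.941), *Irf8* (0.939), *C1qc* (0.934) and *H2-DMb2* (0.933). These correlations describe arrays that share groups and differ between them, and they carry no p.

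SS214 tumors were set against SS tumors to see whether *miR-214* in the vector went with other antigen presentation levels, and no member probe set was called. Of all probe sets tested, 0.922% were called higher and 1.67% lower. *Cd74* was 7.56, 8.63 and 10.34 in SS214 tumor (lowest, median and highest), against 7.24, 9.06 and 10.75 in SS tumor. The ranges nearly coincided, and the difference of 0.05 had a 95% CI of -0.81 to 0.91 (adjusted p = 0.93, limma). *H2-K1* (1) was 11.36, 11.77 and 12.63 in SS214 tumor, against 11.42, 12.21 and 12.82 in SS tumor (-0.21, 95% CI -0.57 to 0.15, adjusted p = 0.36, limma). *Nlrc5* was 4.88, 5.78 and 8.51 in SS214 tumor, against 5.58, 7.12 and 9.07 in SS tumor (-0.77, 95% CI -1.73 to 0.19, adjusted p = 0.20, limma). Intervals also reached past 2-fold for *H2-Aa* (2) (-0.25 to 1.29), *H2-Eb1* (-0.53 to 1.17) and both *H2-Ab1* (2) and (3), whose differences were 0.73 and 0.76 (adjusted p = 0.17 and 0.16).

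*Tapbp* (1) alone passed on adjusted p, without reaching 2-fold. It was 10.88, 11.20 and 11.86 in SS214 tumor, against 11.31, 11.80 and 12.05 in SS tumor, lower by a log2 fold change of -0.46 (95% CI -0.69 to -0.22, adjusted p = 0.0025, limma), where 19.8% of all probe sets were higher and 18.7% lower on adjusted p alone. The groups overlapped. *Tapbp* (2), a dimmer probe set of the same gene, pointed the other way (0.25, adjusted p = 0.19). The 3′ to 5′ *Gapdh* ratio was 0.06 ± 0.14 in SS214 tumor and 0.85 ± 0.37 in SS tumor, and with this ratio as a covariate the *Tapbp* (1) difference was -0.29 (adjusted p = 0.48). With that covariate *Cd74* differed by 1.14 (adjusted p = 0.43) and *H2-Eb1* by 1.62 (adjusted p = 0.23). Of 14 macrophage markers 2 rose in SS214 tumor, *Lyz2* (1.16) and *C1qb* (1.04), where 0.965% of all genes rose and 1.07% fell, and their sum was 2264 to 9746 in SS214 tumor and 1015 to 10251 in SS tumor. *Sftpc*, a lung surfactant gene, also rose (3.29), the 5 lung markers summing to 74.14 to 5010 in SS214 tumor and 62.77 to 160.1 in SS tumor, and with the lung markers as a covariate *Tapbp* (1) differed by -0.45 (adjusted p = 0.011). No gene of the heavy chain, peptide-processing, class II pathway, class II promoter factor, interferon gamma or interferon-stimulated lists was called.

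In the cultured lines, *miR-214* went with higher *H2-K1* in SS64. *H2-K1* (3) was 8.43, 8.40, 8.30 and 8.46 in SS64 miR-214, against 7.27, 7.27, 7.25 and 7.21 in SS64 NC. *H2-K1* (2) was 8.46, 8.42, 8.40 and 8.43 in SS64 miR-214, against 7.44, 7.35, 7.33 and 7.45 in SS64 NC. Every miR-214 array stood above every NC array. Both probe sets were called higher (1.15 ± 0.07, adjusted p = 2.8e-05, and 1.03 ± 0.07, adjusted p = 3.7e-05, limma), which made 2 of the 6 class I probe sets tested, where 0.0589% of all probe sets were called higher and 0.145% lower. *H2-K1* (1), at 9.82, 9.85, 9.75 and 9.82 in SS64 miR-214 against 8.82, 8.93, 8.80 and 8.88 in SS64 NC, passed on adjusted p alone (0.95, adjusted p = 1.7e-05), where 2.01% of all probe sets did so in that direction. The dim *H2-K1* (4) differed by 0.10 (adjusted p = 0.78).

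These calls did not hold under every setting. A fit of all 53 arrays called neither probe set (adjusted p = 0.26 and 0.39), and without SS64 NC replicate 3 the log2 fold change of *H2-K1* (2) was 0.9993, just under 2-fold. All 4 *H2-K1* probe sets belong to a type that may also bind transcripts of closely related heavy chain genes. Among related genes with probe sets of their own, *H2-D1* averaged 6.27 ± 0.25 in SS64 miR-214 and 6.59 ± 0.26 in SS64 NC (-0.32, adjusted p = 0.36), and *H2-T10* passed on adjusted p alone in the other direction (-0.44, adjusted p = 0.0081). None of 10 other heavy chain genes tested was called, at a background of 0.0584% of genes higher and 0.188% lower.

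*Tapbp* (1) moved opposite to *H2-K1* in SS64. It was 6.78, 6.78, 6.84 and 7.08 in SS64 miR-214, against 7.64, 7.69, 7.88 and 7.81 in SS64 NC, lower by -0.89 ± 0.10 on the log2 scale without overlap (adjusted p = 0.00086, limma, under 2-fold), where 4.05% of all probe sets were lower on adjusted p alone. *H2-Eb1* was 5.14, 5.12, 4.60 and 4.72 in SS64 miR-214, against 5.57, 5.52, 5.24 and 5.96 in SS64 NC (-0.76, adjusted p = 0.0496, limma), again without overlap, and SS64 miR-214 had the lowest of the 9 group means. *Tapbp* (2), the dimmer probe set of *Tapbp*, differed by -0.16 and its groups overlapped. *Cd74* differed by 0.12 (adjusted p = 0.78). *Nlrc5* was at the floor on all 4 SS64 NC arrays and reached 3.62 on 1 SS64 miR-214 array, so it was not tested. The guanylate-binding protein genes *Gbp3* (-1.08) and *Gbp7* (-1.05) fell among 15 interferon-stimulated genes, of which none rose, while *Irf1* passed on adjusted p alone (-0.33, adjusted p = 0.049). *Psmb8* and *Psmb9* differed by -0.20 and -0.04 (adjusted p = 0.60 and 0.91).

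In SS40 the same probe sets stood apart in the same direction, but none was called. *H2-K1* (2) was 8.71, 8.68, 8.88 and 9.00 in SS40 miR-214, against 7.70, 7.74, 7.99 and 7.98 in SS40 NC (1.05, 95% CI 0.71 to 1.38, adjusted p = 0.081, limma). *H2-K1* (3) was 8.72, 8.64, 8.68 and 9.22 in SS40 miR-214, against 7.75, 7.75, 7.78 and 7.96 in SS40 NC (1.07, adjusted p = 0.15, limma). The groups did not overlap for *H2-K1* (1), (2) and (3), but how many of all probe sets did the same was not counted. Only 14 of 37456 probe sets were called in this comparison, 0.00534% higher and 0.0320% lower, and for class I 4 of 7 member probe sets had an unadjusted p under 0.05 with limma, 2 of them over 2-fold. Of all probe sets 5.80% had an unadjusted p under 0.05, and 0.275% were also over 2-fold. The methods' t-test also gave 2 members over 2-fold at an unadjusted p under 0.05, where it gave 11 higher and 63 lower of all, and none after Benjamini-Hochberg adjustment. The 14 calls changed in number when 1 array was left out, with 0 higher and 0 lower without SS40 NC replicate 1 or without SS40 NC replicate 2, 0 and 1 without SS40 miR-214 replicate 3, and 4 and 20 without SS40 miR-214 replicate 4. With all 4 arrays of each group counted, *H2-K1* (3) was called (1.00, adjusted p = 0.011), and as a mean over its 4 probe sets *H2-K1* differed by 0.72 (adjusted p = 0.046).

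*Tapbp* (1) was 9.44, 9.49, 9.48 and 9.87 in SS40 miR-214, against 9.97, 10.09, 10.01 and 10.00 in SS40 NC, lower on every array by -0.42 on average (95% CI -0.73 to -0.10, adjusted p = 0.69, limma). *Tapbp* (2) differed by -0.14, and its groups overlapped. SS40 miR-214 replicate 4 stood apart from its group for *H2-K1* (1) (9.62 against 10.05 to 10.14) and for *Tapbp* (1) (9.87 against 9.44 to 9.49). None of the 7 class II probe sets tested had an unadjusted p under 0.05, and no gene of any list was called, against 0.00648% of all genes called higher and 0.0518% lower. *H2-D1* (-0.41), *H2-T23* (-0.84), *Psmb8* (-0.62) and *Irf1* (-0.60) had adjusted p-values of 0.27 to 0.88.

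The response to *miR-214* did not pass a test of its difference between the lines. The SS40 effect minus the SS64 effect was 0.01 (95% CI -0.31 to 0.34) for *H2-K1* (2) and -0.08 (95% CI -0.49 to 0.33) for *H2-K1* (3). For *Tapbp* (1) it was 0.47 (95% CI 0.09 to 0.85, adjusted p = 0.69, limma) and for *H2-Eb1* 0.87 (95% CI 0.12 to 1.63, adjusted p = 0.75, limma). Of 38999 probe sets, 0.0462% (18) were called higher and 0.0410% (16) lower in SS40 in this test. These counts were 2 and 2 without SS64 NC replicate 3, 4 and 3 without SS64 NC replicate 4, 3 and 3 without SS64 miR-214 replicate 4, 5 and 4 without SS64 miR-214 replicate 3, 7 and 8 without SS40 NC replicate 1, 8 and 5 without SS40 NC replicate 2, and 9 and 11 without SS40 miR-214 replicate 3. The summed macrophage markers were 406.8 to 496.2 in SS40 miR-214 and 409.9 to 465.4 in SS40 NC, and 244.5 to 270 in SS64 miR-214 and 262.9 to 289 in SS64 NC, so that the ranges of this list overlapped within each line.

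**Figure D5:**
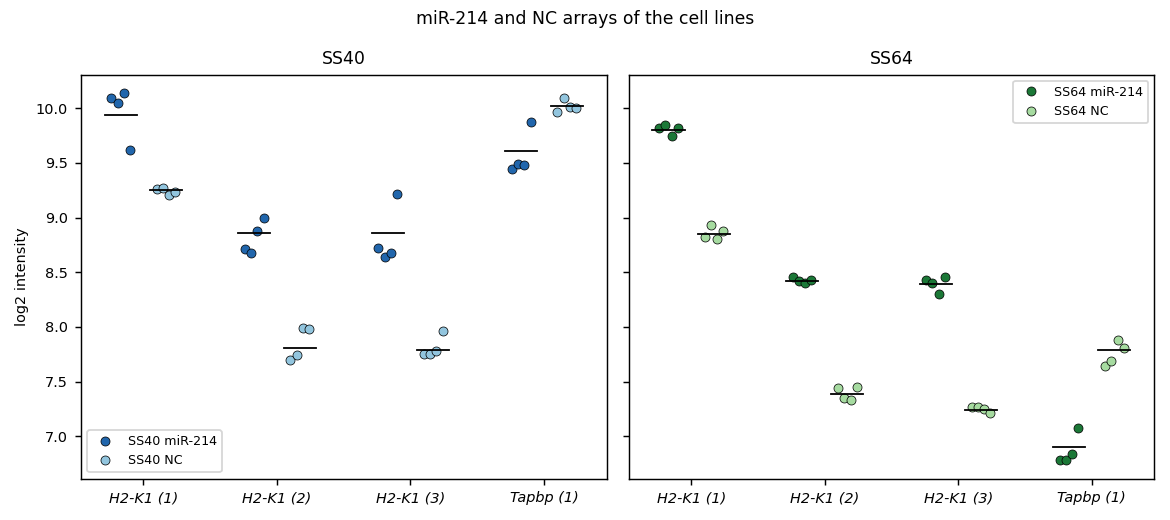
log2 intensity of *H2-K1* (1), (2) and (3) and *Tapbp* (1) on each miR-214 and NC array of SS40 (left) and SS64 (right), with the mean of the samples as a line. *H2-K1* lies higher and *Tapbp* (1) lower on the miR-214 arrays of both lines, and the calls were made for *H2-K1* (2) and (3) in SS64.

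The lines also differed from each other without *miR-214*. *Tapbp* (1) was 9.97, 10.09, 10.01 and 10.00 in SS40 NC, against 7.64, 7.69, 7.88 and 7.81 in SS64 NC (2.24 ± 0.08, adjusted p = 1.6e-07, limma), and *Tapbp* (2) was called as well (1.39). These were 2 of 7 class I probe sets called higher in SS40 NC, where 4.33% of all were and 5.27% were lower, and none of the 7 class II probe sets tested was called, 3 having an unadjusted p under 0.05, as 41.4% of all probe sets had. *H2-K1* (1), (2) and (3) were higher in SS40 NC by 0.40, 0.42 and 0.55 on adjusted p alone, as were 17.7% of all probe sets, with 16.5% lower. *Cd74* was lower in SS40 NC on adjusted p alone (-0.55, adjusted p = 0.047), at 5.43, 5.32, 5.11 and 4.79 in SS40 NC against 5.94, 5.94, 5.96 and 5.45 in SS64 NC. *Psmb8* (2.35), *Psmb10* (1.34), *Psmb9* (1.03) and *Irf1* (1.02) were called higher in SS40 NC, as were 5.90% of all genes, with 6.40% lower, and *Ciita* differed by 0.09 (adjusted p = 0.45).

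In eMCs, *SS18-SSX1* went with higher *H2-K1*, *H2-Aa* and *H2-Ab1*, all under 2-fold. *H2-K1* (1) was 10.89, 10.87, 10.86 and 10.90 in eMC SS18-SSX1, against 10.56, 10.54, 10.47 and 10.50 in eMC empty vector (0.36, 95% CI 0.31 to 0.41, adjusted p = 5.5e-09, limma). *H2-Ab1* (2) was 5.97, 5.73, 5.99 and 5.81 in eMC SS18-SSX1, against 5.03, 5.26, 5.13 and 4.92 in eMC empty vector (0.79 ± 0.09, adjusted p = 3.3e-06, limma). The groups did not overlap for either. As the arrays within each eMC group were near identical, these p-values measure the spread between arrays. No member probe set was called, by limma or by the methods' t-test, where 1.84% of all probe sets were called higher and 0.744% lower. On adjusted p alone 4 of 7 class I and 5 of 7 class II probe sets were higher and none lower, where 22.8% of all were higher and 18.5% lower. *Nlrc5* (0.20, adjusted p = 0.077), *H2-Eb1* (0.17, adjusted p = 0.29) and *Cd74* (0.11, adjusted p = 0.41) did not pass.

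Larger rises were found in the genes around the members. *H2-T23*, a non-classical heavy chain (1.20), and *H2-D1* (1.10) were called among 11 other heavy chain genes, and *Psmb9* (1.20) and *Psmb8* (1.10) among 10 peptide-processing genes, where 2.73% of all genes rose and 0.920% fell. Interferon-stimulated genes were higher in 5 of 15 cases and lower in 0, including *Gbp2* (1.74), *Rsad2* (1.57), *Gbp3* (1.34) and the chemokine gene *Cxcl10* (1.30), and the list's median of 0.73 stood beside -8.4e-05 over all genes. *Irf1* passed on adjusted p alone (0.41). On the class II side *H2-DMa*, a chain of the peptide editor H2-M, fell by 1.07, and *Ciita* differed by -0.11 (adjusted p = 0.19). *Ptprc*, the leukocyte antigen CD45, rose by 1.01 among 13 macrophage markers, whose sum was 4125 to 4314 in eMC SS18-SSX1 and 2901 to 2979 in eMC empty vector, with *Lyz2* averaging 10.90 and 10.45 in the same order of groups. All 6 endothelial markers rose, led by *Emcn* (3.54), their sum being 839.2 to 859.8 in eMC SS18-SSX1 and 145.7 to 161.1 in eMC empty vector. The part of macrophage and endothelial markers in the rises of the members was not tested.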

How the data were processed

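RNA was hybridised to single-colour Affymetrix mouse arrays. The authors deposited 1 table of linear intensity values, for which the submitters' processing notes name MAS5 and the study's methods GeneSpring. Of 45141 probe sets, 104 controls were left out, and of the 45037 used 28898 had 1 gene symbol in the platform annotation, 551 had several and 15588 were unnamed here. Intensities under 11.7 (the median over arrays of the 20th percentile) were raised to it and log2 was taken. Each comparison was fitted on its own 2 groups with limma 3.58.1 (lmFit and eBayes with a trend, R 4.3.3) over probe sets above the floor on at least 4 arrays, with Benjamini-Hochberg adjustment over all of them. A call needed an adjusted p under 0.05 and over 2-fold. Overlap between groups was not counted over all probe sets, so that it describes the printed values only. The scripts were tested on simulated data. The 5 near-identical array pairs were counted as 1 sample each after seeing the data. The labels' replicate numbers were checked by the correlation of same-numbered arrays. It was 0.221 to 0.346 in SS64, -0.28 to 0.46 in SS40 and 0.011 to 0.153 in eMCs. Only in SS64 were all values above 0.1. Even there, numbers 1 and 3 had higher values with a different number (0.376 and 0.381) than with their own (0.346 and 0.221). The check therefore cannot decide whether the numbers pair the arrays of any of these comparisons. The report's values come from fits without the block, and in SS64 the block changed no call of a member. Gene locations and promoters are from RefSeq (GRCm38.p6). *Cd74* lies on chromosome 18. Beside the members, up to 4 called genes with the largest change were named for some lists in a comparison. Lists that are not mentioned there, or only counted, may also hold called genes. Also named were *Ciita*, *Psmb8*, *Psmb9*, *Irf1* and *Ifng* in any comparison and the 5 genes most like *H2-K1* and *Cd74*. *H2-D1*, *H2-T10* and *H2-T23* in the lines, *Rfx5* in SS tumor, *Lyz2* in eMCs and the collagens were named after their values were seen. The members and lists were chosen with earlier results of these data known. Alternatives tried were the floor, filter, quantile scaling, gene means, the methods' t-test, a replicate block, covariates and leaving out arrays other than tumors. The methods call the tissue mix human and the second line SS60, whereas the labels give mouse and SS64, which were followed.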

Additional observations from a re-analysis of the deposited data

Results flagged for a closer look

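Within groups of 4 to 10 samples, 42 combinations of member probe set and group were tested for a single array far from the others (Dixon's test at the 95% level), and 5 passed, where chance alone passes about 1 in 20. In eMC SS18-SSX1, *H2-Eb1* was lowest on replicate 1 (5.498), against 5.763 to 5.775 on the others. In eMC empty vector, *H2-Aa* (2) was lowest on replicate 2 (4.179), against 4.593 to 4.642 on the others. In the normal tissue mix, replicate 2 was lowest for *H2-K1* (3) (9.657) and for *H2-Aa* (2) (9.389), and replicate 1 was highest for *Nlrc5* (4.354). All values are log2 intensities.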

How the results depend on the processing

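No call changed direction under any alternative, and 310 of 324 values that answer a comparison were taken as unchanged. A small shift in a count of called probe sets, such as 5 to 6, was taken as no change. On adjusted p alone, without the 2-fold limit, the eMC comparison gave 4 class I and 5 class II probe sets in place of 0 and 0, SS214 tumor against SS tumor 1 class I in place of 0, SS64 4 class I and 1 class II in place of 2 and 0, and SS40 NC against SS64 NC 6 class I and 1 class II in place of 2 and 0. *H2-K1* (1) also passed that way in SS tumor against the normal tissue mix, and *Tapbp* (2) in SS tumor against eMC empty vector and against SS40 NC. In 1 fit of all arrays, SS tumor against the normal tissue mix gave 2 class II probe sets in place of 0, and SS64 gave 0 class I in place of 2. In SS40, where 0 class I probe sets were called, the methods' t-test without adjustment gave 2, all arrays as labelled gave 1, and a replicate block with all arrays as labelled gave 1. With the replicate block, SS64 gave 2 class I probe sets as before and the eMC comparison 0, so the block changed no other call. Single arrays were left out in turn, which keeps a counted pair through its other array, and no tumor was left out of a comparison. This gave 1 to 2 class I probe sets in SS64, the 1 being without SS64 NC replicate 3. In SS tumor against eMC empty vector it gave 5 to 6. Without its 2 farthest tumors the relation of *Cd74* with *Cd79b* in SS214 tumor was r = 0.564 (adjusted permutation p = 0.071). The number of all probe sets called in SS40, 2 higher and 12 lower, was 9 and 51 with all arrays as labelled, 7 and 61 in 1 fit of all arrays and 0 and 0 without a filter. When the *Gapdh* 3′ over 5′ value entered the fit, SS214 tumor against SS tumor gave 103 higher and 371 lower, in place of 355 and 642. The cause of these changes was not tested. With 3 or 4 samples a group, precision was limited by their number, and probe sets near the floor, such as *Nlrc5* in the lines, give only bounds.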
